A study of Mus musculus with 8 samples.

Results

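The major histocompatibility complex (MHC) genes and the genes that prepare peptides for the MHC proteins were followed in cancers of the mouse stomach. The group was formed from every gene whose symbol began with H2- and a capital letter, leaving out H2-Ke2 and H2-Ke6, to which B2m, Tap1, Tap2, Tapbp, Psmb8, Psmb9, Psmb10, Nlrc5, Ciita and Cd74 were added. It held 52 of the 23361 genes measured, of which 40 belonged to class I and 12 to class II. Values of at least 1 in at least 3 of the 8 samples were required for a test, and 37 members met this, 28 of class I and 9 of class II. Another 11 members, each of class I, were listed at 0 in every sample, and 4 were above 0 in too few samples.

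RNA was sequenced from 5 cancers of the squamous-columnar junction (SCJ), the border between the squamous forestomach and the glandular stomach, and from the SCJ of 3 wild-type stomachs of matching age. The cancers, labelled Trp53-/-Rb1-/-, grew in Lgr5eGFP-Ires-CreERT2 Trp53loxP/loxP Rb1loxP/loxP Ai9 mice that received tamoxifen at 6 to 10 weeks of age and were dissected at least 250 days afterwards. Cre was driven from the Lgr5 locus, so recombination began in Lgr5-expressing cells, and the tumour edge was read from the tdTomato reporter, so a dissected piece could still hold unrecombined stroma and blood cells. The strain and sex of the mice, and whether the control mice received tamoxifen, are not given in the sources used here. MHC genes differ between mouse strains, the reads were assigned to 1 reference genome, and the part of strain in the values below was not tested.

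The values were fragments scaled by transcript length and sequencing depth (FPKM), rounded to whole numbers. Whole-gene Trp53 was 12, 22, 12, 30 and 12 FPKM in the cancers and 16, 17 and 19 FPKM in the controls, whereas Rb1 was 4 to 6 FPKM in the cancers and 9 to 10 FPKM in the controls (limma adjusted p = 0.00589). At the level of the whole gene Trp53 did not follow its label, and the groups are named here by tissue. FPKM summed to 403569 to 573858 in the cancers and to 887141 to 992550 in the controls, where the 10 highest genes took 39.3% to 44.3% of the sum against 11.1% to 19.6% in the cancers. Rescaling each sample to 1 common sum (as for TPM) therefore moved the median log2 fold change of all tested genes from -0.04 to 0.81, and rescaled calls are given beside the lists and genes whose calls they change. The fall of Rb1 was lost on rescaling (log2 fold change -0.05, limma adjusted p = 0.838). Trp53 was then called higher (0.86, adjusted p = 0.0201), so neither deletion was seen in whole-gene values under both scalings. Whole-gene values do not resolve the loxP-flanked parts, and the pieces could hold unrecombined cells, so recombination itself was not tested. The counts of further lists below are to be read against the 16.2% of all tested genes called higher and the 18.3% called lower, and after rescaling against 50.0% and 3.68%. Gastric gland genes were also unequal among the cancers: Tff1, a pit cell peptide, was 26, 34501, 2203, 15866 and 8089 FPKM in cancers 1 to 5 and 60040 to 93551 FPKM in the controls.

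Class I molecules sit on nearly all nucleated cells and display peptides from inside the cell to CD8 T cells. A heavy chain pairs with the light chain beta-2 microglobulin (B2m), the proteasome cuts the peptides, the transporter formed by Tap1 and Tap2 carries them into the endoplasmic reticulum, and tapasin (Tapbp) holds the empty heavy chain to it. Class II molecules are made by dendritic cells, macrophages, B cells and some epithelia, are escorted by the invariant chain (Cd74), and exchange a fragment of that chain for a peptide with the help of H2-DM. Nlrc5 and Ciita are the transactivators of the class I and the class II genes, and interferon gamma induces both classes.

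Transactivators reach these genes through short elements just ahead of the start site, and 5 promoters are printed to show how far members that behaved differently below share them. RefSeq promoters were matched for 36 of the 52 members. Each sequence holds the 200 bases before the annotated start, read 5′ to 3′ on the gene's own strand in build GRCm38.p6. Capitals mark matches on either strand to GGGNNTTCC (a kappaB-type motif), GAANNGAAA (an interferon-response type), TGACG (an X2 type) and ATTGG (a Y type). The windows lie at chr17:34000348-34000547 on the minus strand for H2-K1, chr17:35262894-35263093 on the plus strand for H2-D1, chr17:37270034-37270233 on the plus strand for H2-M3, chr17:35342107-35342306 on the plus strand for H2-Q2 and chr17:34287824-34288023 on the minus strand for H2-Aa. The first pair are classical class I genes, H2-M3 and H2-Q2 are non-classical class I genes that were higher in the cancers, and H2-Aa encodes a class II chain.
H2-K1: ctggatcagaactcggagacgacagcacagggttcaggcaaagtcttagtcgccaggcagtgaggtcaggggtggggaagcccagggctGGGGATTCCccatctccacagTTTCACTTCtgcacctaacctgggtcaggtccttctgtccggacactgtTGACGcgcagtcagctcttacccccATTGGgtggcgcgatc
H2-D1: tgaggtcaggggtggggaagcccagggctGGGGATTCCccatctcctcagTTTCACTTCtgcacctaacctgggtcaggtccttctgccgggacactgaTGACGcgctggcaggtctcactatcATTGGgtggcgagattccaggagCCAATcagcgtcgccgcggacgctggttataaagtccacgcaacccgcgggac
H2-M3: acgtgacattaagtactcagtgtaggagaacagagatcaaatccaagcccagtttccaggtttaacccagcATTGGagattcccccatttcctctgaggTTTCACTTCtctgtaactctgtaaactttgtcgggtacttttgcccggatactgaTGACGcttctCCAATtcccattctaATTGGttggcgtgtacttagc
H2-Q2: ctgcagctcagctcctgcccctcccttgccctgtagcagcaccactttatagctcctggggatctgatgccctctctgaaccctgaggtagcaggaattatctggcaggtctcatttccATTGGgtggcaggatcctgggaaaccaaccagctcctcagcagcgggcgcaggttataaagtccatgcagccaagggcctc
H2-Aa: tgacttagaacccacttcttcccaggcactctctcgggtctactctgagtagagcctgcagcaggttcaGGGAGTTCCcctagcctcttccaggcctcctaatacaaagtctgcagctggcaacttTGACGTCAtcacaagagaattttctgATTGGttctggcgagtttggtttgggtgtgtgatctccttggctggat
H2-K1, H2-D1 and H2-M3 carried TGACG followed 20 bases later by ATTGG, and H2-Aa carried the same pair 21 bases apart. Such a pair, with 10 to 30 bases in between, was found in 6 of the 36 member promoters (H2-K1, H2-D1, H2-M3, H2-Q7, B2m and H2-Aa) and in 0.651% of all 27025 promoter windows. The interferon-response type was present in 8 of 28 class I promoters and 0 of 8 class II promoters, against 5% of all windows. In H2-Q2 the only match was ATTGG, which 30% of all windows held. Alone, TGACG was in 15.8% of windows and GGGNNTTCC in 4.05%. The different motifs did not overlap one another in the printed windows, while TGACG on both strands overlapped itself in H2-Aa. A match describes letters and not bound sites.

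Among class I genes, 3 non-classical heavy chains were higher in the cancers and no member was lower, while the classical heavy chains and the peptide machinery were not called. Past an adjusted p of 0.05 in limma, which tests each gene on log2(FPKM + 1) with a variance shared across genes, were 3 of 28 class I members, all higher, against 34.5% of all 14357 tested genes called (16.2% higher and 18.3% lower). The same 3 members were the class I genes with every cancer above every control, an arrangement found in 14.4% of tested genes, and 0 of 28 lay wholly below the controls, as 19.8% of tested genes did. After rescaling 5 of 28 were called higher and 0 lower. The median log2 fold change of the 28 was 0.17 against -0.04 for all tested genes, and it was 0.06 without the 2 members whose controls were all listed at 0. Bulk tissue was measured, so more cells of a type and more RNA per cell cannot be told apart.

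**Figure D1:**
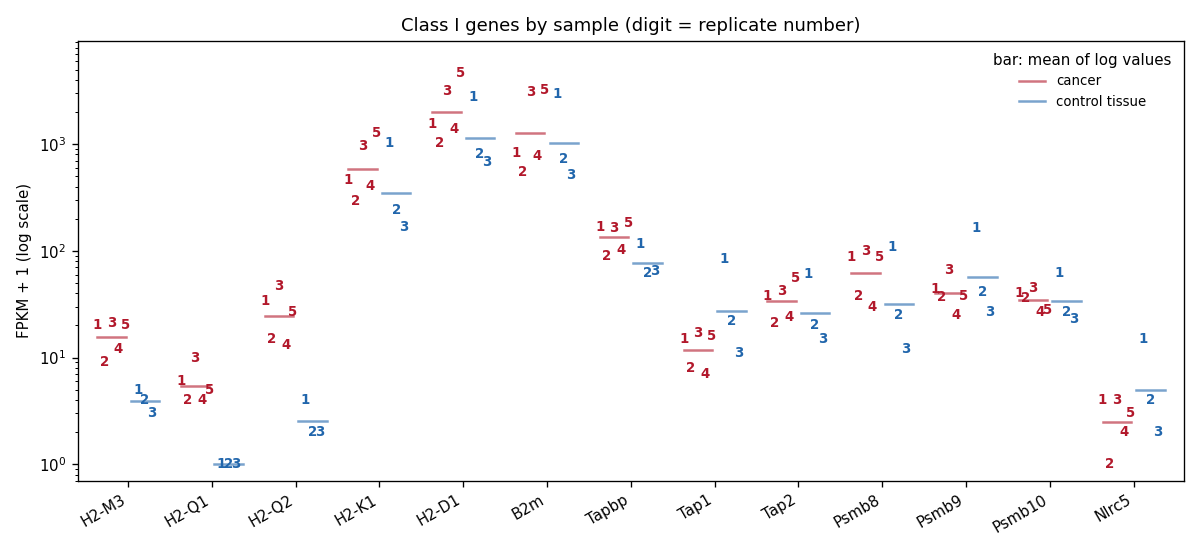
FPKM + 1 on a log axis for 13 class I genes in each sample, with each digit a replicate number (red: cancers 1 to 5, blue: control tissue 1 to 3) and each bar the mean of the log values. H2-M3, H2-Q1 and H2-Q2 separate the groups, while control 1 lies above controls 2 and 3 in most other genes.

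H2-Q2 (Entrez 15013, chr17:35342333-35345722, mm10), a non-classical heavy chain of the Q region, measured 33, 14, 46, 12 and 26 FPKM in cancers 1 to 5 and 3, 1 and 1 FPKM in controls 1 to 3. The lowest cancer was thus well above the highest control. Its means were 26.2 ± 14.0 (SD, n = 5) and 1.67 ± 1.15 (SD, n = 3) FPKM, and the log2 fold change was 3.27 ± 0.47 (SE, limma adjusted p = 0.00321), or 9.63-fold on FPKM + 1.

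H2-Q1 (Entrez 15006, chr17:35320558-35325099), its neighbour, measured 5, 3, 9, 3 and 4 FPKM in the cancers and was listed at 0 in the 3 controls. No fold is given against zeros, and the log2 difference of 2.45 ± 0.31 (SE, limma adjusted p = 0.00203) depends on the 1 added to each value. Cancer 3 was the highest cancer for both H2-Q1 and H2-Q2.

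H2-M3 (Entrez 14991, chr17:37270234-37274485), which presents N-formylated peptides such as those of bacteria and mitochondria, measured 19, 8, 20, 11 and 19 FPKM in the cancers and 4, 3 and 2 FPKM in the controls. The groups did not overlap. The log2 fold change was 1.99 ± 0.33 (SE, limma adjusted p = 0.00518), a 3.97-fold rise on FPKM + 1. For each of these 3 genes the exact permutation p was 0.0179, the smallest that 5 against 3 samples allow. All 3 were called again after rescaling, where 50.0% of all tested genes were called higher, and without control 1. H2-M3 alone lost its call with the replicate number as a block (log2 fold change 1.99, limma adjusted p = 0.0704), a fit in which 10.7% of all tested genes were called.

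The classical chains H2-D1 and H2-K1 present most peptides to CD8 T cells and were the highest heavy chains in every sample. H2-D1 measured 1541, 1019, 3163, 1395 and 4672 FPKM in the cancers and 2751, 807 and 677 FPKM in the controls. H2-K1 followed with 463, 295, 954, 403 and 1283 FPKM against 1022, 242 and 168 FPKM. In both genes cancers 5 and 3 were high and cancer 2 was the lowest cancer, and control 1 lay above cancers 1, 2 and 4, so the groups overlapped. The log2 fold changes were 0.81 ± 0.66 for H2-D1 and 0.75 ± 0.70 for H2-K1 (SE, limma adjusted p = 0.357 and 0.422). Without control 1 they were 1.44 and 1.53, and without control 3 they were 0.43 and 0.23. After rescaling H2-D1 passed the test (log2 fold change 1.78, limma adjusted p = 0.0491) and H2-K1 did not (1.72, adjusted p = 0.0682).

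B2m, the light chain shared by all class I heavy chains, measured 834, 548, 3111, 770 and 3192 FPKM in the cancers and 2965, 730 and 512 FPKM in the controls. Cancers 3 and 5 and control 1 stood together above the other 5 samples. The log2 fold change was 0.31 ± 0.82 (SE, limma adjusted p = 0.788), and its sign turned without cancer 3, cancer 5 or control 3. H2-L, which shares its locus with H2-D1 in the table so that reads may have been split between them, stayed at 3 to 20 FPKM in the cancers and 4 to 15 FPKM in the controls.

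Of the peptide loading genes, tapasin came closest to a difference. Tapbp measured 166, 88, 163, 101 and 182 FPKM in the cancers and 114, 61 and 64 FPKM in the controls, so that only control 1 reached into the range of the cancers. Its log2 fold change was 0.81 ± 0.32 (SE, limma adjusted p = 0.0867), and it was called after rescaling (1.78, adjusted p = 0.00702), after quantile normalization, with array weights and without cancer 2. Tap2, a chain of the peptide transporter, measured 37, 20, 41, 23 and 55 FPKM against 60, 19 and 14 FPKM, with a log2 fold change of 0.36 ± 0.51 (SE, limma adjusted p = 0.594).

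Its partner Tap1 measured 14, 7, 16, 6 and 15 FPKM in the cancers and 82, 21 and 10 FPKM in the controls. Control 3 lay inside the range of the cancers and control 1 far above it. The log2 fold change was -1.20 ± 0.64 (SE, limma adjusted p = 0.171), on the opposite side of 0 from Tap2, and it was -0.40 without control 1 and -1.86 without control 3. Nlrc5, the class I transactivator, was 3, 0, 3, 1 and 2 FPKM against 14, 3 and 1 FPKM (log2 fold change -0.98, limma adjusted p = 0.298, and -0.18 without control 1 and -1.64 without control 3).

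Psmb8, Psmb9 and Psmb10 encode the catalytic subunits that replace Psmb5, Psmb6 and Psmb7 when the immunoproteasome forms. Psmb9 measured 43, 36, 65, 24 and 37 FPKM in the cancers and 162, 40 and 26 FPKM in the controls, and Psmb8 measured 87, 37, 98, 29 and 87 FPKM against 108, 24 and 11 FPKM. Psmb10 stayed between 26 and 44 FPKM in the cancers and was 61, 26 and 22 FPKM in the controls. In all 3 genes control 1 was the highest of the 8 samples, and none passed the test (limma log2 fold changes -0.50, 0.94 and 0.03, adjusted p = 0.517, 0.337 and 0.948). The estimate for Psmb8 was 1.83 without control 1 and 0.23 without control 3. Of their constitutive counterparts, Psmb5 was 68 to 160 FPKM in the cancers and 133 to 167 FPKM in the controls, Psmb6 82 to 137 FPKM against 110 to 136 FPKM, and Psmb7 92 to 155 FPKM against 137 to 214 FPKM. None of the 3 was called, while after rescaling Psmb6 and Psmb7 were called higher (limma adjusted p = 0.00379 and 0.0454).

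Ratios of 2 genes within a sample depend little on the scaling between samples where both genes are high, and more at a few FPKM, where the 1 added to each value counts. Of these ratios 6 were compared by two-sided exact permutation tests with adjustment over the 6. The Psmb8 to Psmb5 ratio of FPKM + 1 was 1.28, 0.264, 1.3, 0.186 and 0.854 in cancers 1 to 5 and 0.669, 0.187 and 0.0714 in controls 1 to 3, a log2 difference of 1.5 (exact p = 0.161, adjusted 0.321) that was 2.35 without control 1 and 0.73 without control 3. Cancers 2 and 4 lay at the level of control 2, and the other cancers above every control. The Psmb9 to Psmb6 ratio ran from 0.181 to 0.725 in the cancers and from 0.239 to 1.19 in the controls (log2 difference -0.31, exact p = 0.661), and the Psmb10 to Psmb7 ratio differed by 0.51 (exact p = 0.25, adjusted 0.375). B2m to H2-K1 was 1.8, 1.85, 3.26, 1.91 and 2.49 in the cancers and a near constant 2.9, 3.01 and 3.04 in the controls (log2 difference -0.44, exact p = 0.107, adjusted 0.321). The control ratios held while both genes differed several-fold between control 1 and the other controls.

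Non-classical heavy chains made up the rest of class I, and 14 of the 17 tested were not called. H2-Q4 was the highest, at 64, 38, 122, 41 and 140 FPKM in the cancers and 214, 52 and 30 FPKM in the controls. H2-Q6 measured 6, 1, 10, 1 and 21 FPKM against 70, 12 and 1 FPKM, and H2-Q7 measured 8, 2, 24, 4 and 49 FPKM against 59, 11 and 1 FPKM. Cancer 5 was the highest cancer and control 1 the highest control in each of these 3 genes, and their log2 fold changes of 0.01, -1.07 and -0.02 came with SE of 0.70 to 1.26.

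H2-Q9, whose locus is that of H2-Q7 in the table, measured 6, 0, 3, 1 and 9 FPKM in the cancers against 35, 4 and 0 FPKM. H2-Q6 likewise shares its locus with H2-Q8, which was listed at 0, and reads of such near-identical copies may have been divided between them. In the T region H2-T10 was 7 to 17 FPKM in the cancers and 27, 8 and 5 FPKM in the controls, and H2-T23, the Qa-1 chain recognised by natural killer cell receptors, was 3 to 11 FPKM in the cancers and 10, 4 and 3 FPKM in the controls. H2-T9 was 1 to 4 FPKM against 13, 4 and 1 FPKM, H2-K2 was 1 to 5 FPKM against 12, 2 and 1 FPKM, and H2-Q5 was 1 to 7 FPKM against 3, 1 and 1 FPKM. H2-T22, H2-T24, H2-Q10, H2-Bl and H2-M2 reached at most 5 FPKM in any sample. H2-T22 with H2-T9, and H2-T23 with H2-T24, are also pairs with a shared locus. H2-M9, at 1 FPKM in cancer 1 and at 0 elsewhere, was not tested, and the 11 members listed at 0 were H2-Q8, H2-T3, H2-M1, H2-M5, H2-M11 and the 6 H2-M10 genes.

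**Figure D2:**
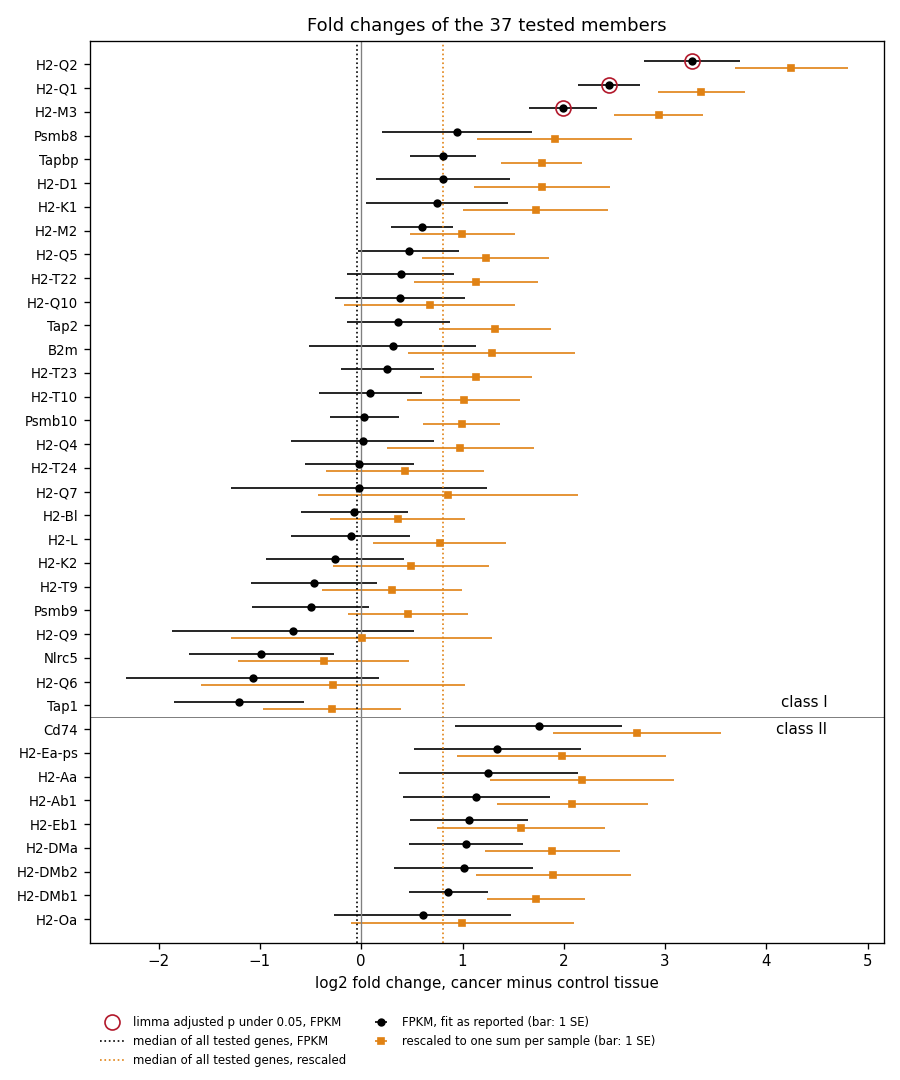
Log2 fold change (cancer minus control tissue) of the 37 tested members with 1 SE, from FPKM (black) and after rescaling each sample to one sum (orange); dotted lines are the medians of all tested genes, -0.04 and 0.81, and red rings mark limma adjusted p under 0.05. H2-Q2, H2-Q1 and H2-M3 carry the rings at 3.27, 2.45 and 1.99, and all 9 class II genes lie to the right of 0.

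Control 1 stood apart from the other controls in class I genes. It was the highest of the 3 controls in 25 of 28 tested class I members and in 3 of 9 class II members, against 24.5% of all tested genes, and the highest of all 8 samples in 14 of 28 class I members against 14.1% of all tested genes. The median difference of control 1 from the mean of the other controls was 1.91 on the log2 scale in class I and 0 in class II and in all tested genes. The FPKM sum of control 1 lay between those of controls 2 and 3. Without control 1 the median log2 fold change of class I rose from 0.17 to 0.72, and 3 members were again called, where 17.7% of all tested genes were.

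**Figure D3:**
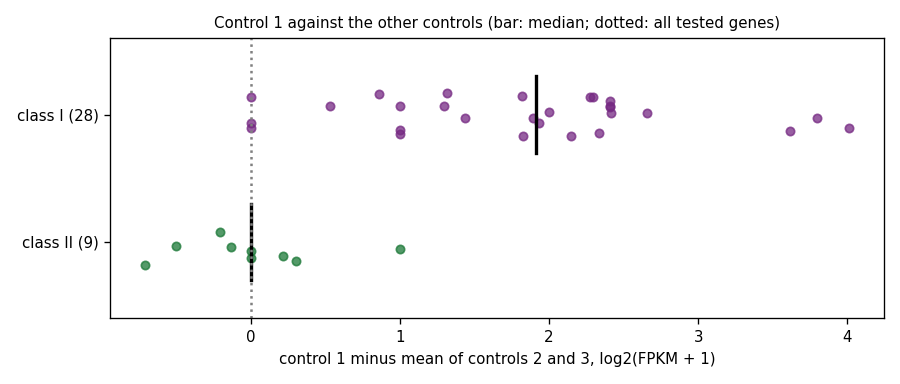
Difference of control 1 from the mean of controls 2 and 3 in log2(FPKM + 1), a point per tested member (vertical spread for display only), with medians as black bars and the median of all tested genes dotted. The class I median is 1.91, and the class II median is 0.

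Of 11 tested genes listed for the interferon gamma axis, 8 were highest among the controls in control 1, against 24.5% of all tested genes. Jak1, Ifngr2 and Irf8 were not. Ifng itself was listed at 0 in every sample. Stat2, a transcription factor of the interferon response named after its values were seen, measured 12, 7, 9, 6 and 7 FPKM in the cancers and 62, 18 and 9 FPKM in the controls (log2 fold change -1.35 ± 0.54 SE, limma adjusted p = 0.0861). Its rank order among the controls was that of Tap1, Psmb9 and Nlrc5, and also that of H2-K1, H2-D1 and B2m. Control 1 was the highest control in 25 of 28 tested class I members, so a shared order is not specific to these genes. The part of the interferon genes in the class I values was not tested. Irf1, a further interferon-induced factor, was 44, 22, 37, 21 and 33 FPKM against 41, 14 and 13 FPKM, again highest among the controls in control 1 but as high in cancers 1 and 3 (log2 fold change 0.59, limma adjusted p = 0.287), and it was called higher after rescaling (1.55, adjusted p = 0.0242).

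Of 12 genes listed for the interferon gamma axis, 11 were tested, 1 rose and 2 fell, with a median log2 fold change of -0.43, and after rescaling 4 were called higher and 0 lower. The receptor chains fell: Ifngr1 measured 23, 61, 22, 53 and 38 FPKM against 106, 75 and 74 FPKM (log2 fold change -1.18 ± 0.37 SE, limma adjusted p = 0.043), and Ifngr2 measured 18 to 34 FPKM against 41 to 66 FPKM (-1.23 ± 0.26 SE, adjusted p = 0.0116). Neither fall was called after rescaling (adjusted p = 0.496 and 0.319). Irf8, a factor of myeloid and B cells, rose from 3 to 4 FPKM in the controls to 6 to 18 FPKM in the cancers (log2 fold change 1.24 ± 0.35 SE, limma adjusted p = 0.0299).

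Of 12 loading and trimming genes outside the group, all tested, 1 rose and 1 fell, with a median log2 fold change of -0.03. After rescaling 9 of the 12 were called higher and 0 lower, with a median of 0.94 against 0.81 for all tested genes. Pdia3 (ERp57), a partner of tapasin in the loading complex, measured 535, 342, 629, 567 and 647 FPKM in the cancers and 311, 248 and 213 FPKM in the controls, and rose (1.06 ± 0.26 SE, limma adjusted p = 0.0181). Psme3, an activator cap of the nuclear proteasome, fell from 47 to 57 FPKM to 18 to 36 FPKM (-1.0 ± 0.23 SE, limma adjusted p = 0.0155), a call lost after rescaling (adjusted p = 0.824). Among 8 other MHC-like genes, 6 were tested and Cd1d1, which presents lipids to natural killer T cells, rose from 1 to 2 FPKM to 2 to 28 FPKM (2.10 ± 0.66 SE, limma adjusted p = 0.0437), with cancer 4 inside the control range. After rescaling 4 of these 6 were called higher.

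Class II members had higher means in the cancers throughout, but the cancers differed from one another and none of 9 passed the test. The median log2 fold change of the 9 was 1.06 against -0.04 for all tested genes, it was 1.08 without H2-Eb1, whose controls were listed at 0, and all 9 estimates were above 0. In limma 0 of 9 were called and 0 had an unadjusted p under 0.05, against 34.5% of tested genes called, and 0 of 9 separated the groups without overlap. After rescaling 4 of 9 were called higher (Cd74, H2-Ab1, H2-DMa and H2-DMb1), where 50.0% of all tested genes were called higher and 3.68% lower, and the class II median was 1.90 against 0.81 for all tested genes. With array weights 7 of 9 were called, where 56.8% of tested genes were.

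**Figure D4:**
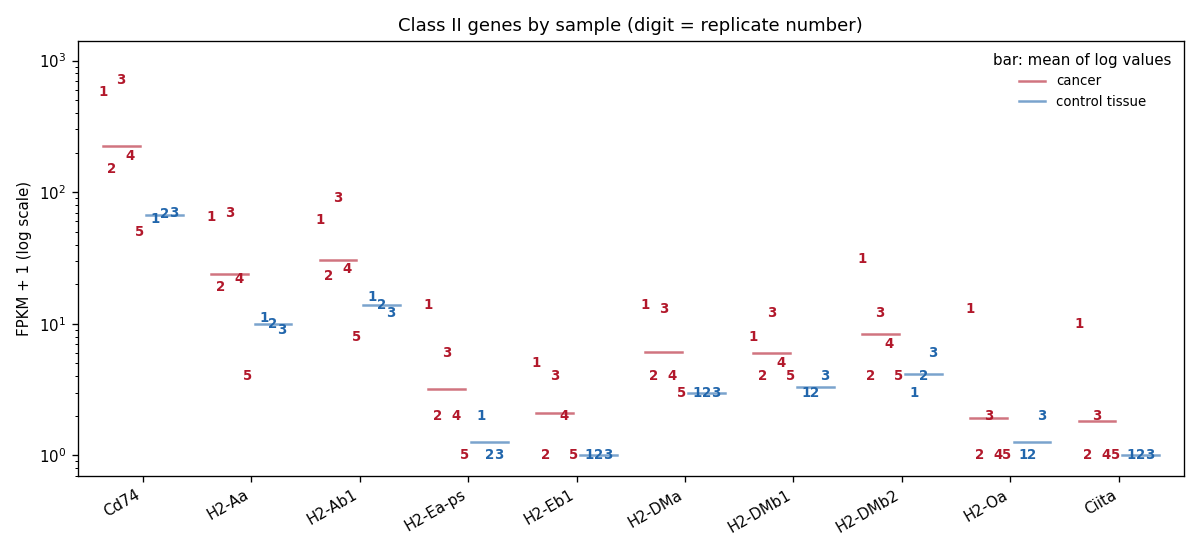
FPKM + 1 on a log axis for 10 class II genes in each sample, with each digit a replicate number (red: cancers 1 to 5, blue: control tissue 1 to 3) and each bar the mean of the log values. Cancers 1 and 3 lie highest, the 3 controls lie close together, and cancer 5 falls at or below the controls for Cd74, H2-Aa and H2-Ab1.

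Cd74, the invariant chain, measured 579, 148, 710, 189 and 49 FPKM in the cancers and 62, 67 and 69 FPKM in the controls. Cancers 1 to 4 were above all controls and cancer 5 below them. The means were 335 ± 291 (SD, n = 5) and 66 ± 3.61 (SD, n = 3) FPKM, and the log2 fold change was 1.75 ± 0.82 (SE, limma adjusted p = 0.132), with 0.0238 after rescaling and 0.0317 without cancer 5.

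The chains of the I-A molecule behaved alike. H2-Aa measured 64, 18, 69, 21 and 3 FPKM in the cancers and 10, 9 and 8 FPKM in the controls, and H2-Ab1 measured 61, 22, 89, 25 and 7 FPKM against 15, 13 and 11 FPKM. Their log2 fold changes were 1.25 ± 0.89 and 1.14 ± 0.72 (SE, limma adjusted p = 0.29 and 0.243). Without cancer 5, H2-Aa was called as well (1.90, adjusted p = 0.0385), and 2 of 9 class II members then passed, where 31.2% of all tested genes did. Cancer 5 thus held the lowest I-A levels of the 8 samples together with the highest H2-D1, H2-K1 and B2m.

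The ratio of Cd74 to H2-Ab1 was 9.35, 6.48, 7.9, 7.31 and 6.25 in cancers 1 to 5 and 3.94, 4.86 and 5.83 in controls 1 to 3. Every cancer, cancer 5 included, was above every control. The log2 difference was 0.62 (exact permutation p = 0.0179, the smallest the design allows, adjusted 0.107 over 6 ratios), so it did not pass the adjustment, and it stayed between 0.47 and 0.75 when each sample was left out.

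H2-DMa and H2-DMb1 form the exchange factor H2-DM. H2-DMa measured 13, 3, 12, 3 and 2 FPKM in the cancers and 2 FPKM in each control, and H2-DMb1 measured 7, 3, 11, 4 and 3 FPKM against 2, 2 and 3 FPKM (limma log2 fold changes 1.03 and 0.86, adjusted p = 0.179 and 0.119). H2-DMb2 was 30, 3, 11, 6 and 3 FPKM against 2, 3 and 5 FPKM, highest in cancer 1. At these low levels the rounding to whole numbers is itself a large part of a value.

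The I-E genes were near the floor of the table. H2-Ea-ps, annotated as a pseudogene, measured 13, 1, 5, 1 and 0 FPKM in the cancers and 1, 0 and 0 FPKM in the controls, and H2-Eb1 measured 4, 0, 3, 1 and 0 FPKM in the cancers and was listed at 0 in the controls (limma adjusted p = 0.227 and 0.18). Cancers 1 and 3 again held the highest values.

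Several class II genes were chiefly a feature of cancer 1. Ciita, the class II transactivator, was 9 FPKM in cancer 1, 1 FPKM in cancer 3 and listed at 0 elsewhere. H2-Oa and H2-Ob, which form the inhibitor H2-DO that B cells make, were 12 and 8 FPKM in cancer 1 and at most 1 FPKM in any other sample, and H2-Eb2 was 2 FPKM in cancer 1 and listed at 0 elsewhere. Only H2-Oa of these had enough values for a test (log2 fold change 0.61, limma adjusted p = 0.605), and its sign turned without cancer 1.

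Cancer 1 also stood apart in lymphocyte markers. Of 6 B cell genes, Ms4a1 was 26 and Cd79a 68 FPKM in cancer 1, against 0 for Ms4a1 and at most 2 for Cd79a in the other 7 samples, and the summed level of the 6 was 189 FPKM in cancer 1, 0 to 4 FPKM in the other cancers and 0 to 1 FPKM in the controls. Of 9 T and natural killer cell genes, Cd3e was 6, Cd4 6 and Cd8a 3 FPKM in cancer 1 and at most 2, 1 and 0 FPKM elsewhere. Without cancer 1 the median log2 fold change of class II was 0.75. The part of lymphocytes in the class II values was not tested.

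Ptprc (CD45), carried by all leukocytes, was 21, 1, 5, 2 and 2 FPKM in the cancers and 1 FPKM in each control (log2 fold change 1.24 ± 0.72 SE, limma adjusted p = 0.205). The H2-Ab1 to Ptprc ratio was 2.82, 11.5, 15, 8.67 and 2.67 in the cancers, while controls 1 to 3 gave 8, 7 and 6 (log2 difference of the means -0.11, exact permutation p = 0.893). It ranged more widely among the cancers than among the controls, but Ptprc was rounded to 1 FPKM in each control. The control ratios therefore vary with H2-Ab1 alone, and the ranges of the groups cannot be compared. Of 6 leukocyte genes 0 rose and 1 fell, 5 had estimates above 0, and the median log2 fold change was 1.12. Laptm5 and Coro1a, a lysosomal and an actin-binding protein of leukocytes, had every cancer above every control without a call (limma adjusted p = 0.0556 and 0.181), and after rescaling they and Itgb2 were called higher, 3 of the 6. Lcp1, an actin-bundling protein, went from 34 to 43 FPKM to 13 to 38 FPKM (-0.99 ± 0.31 SE, limma adjusted p = 0.044), a call lost after rescaling (adjusted p = 0.914).

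**Figure D5:**
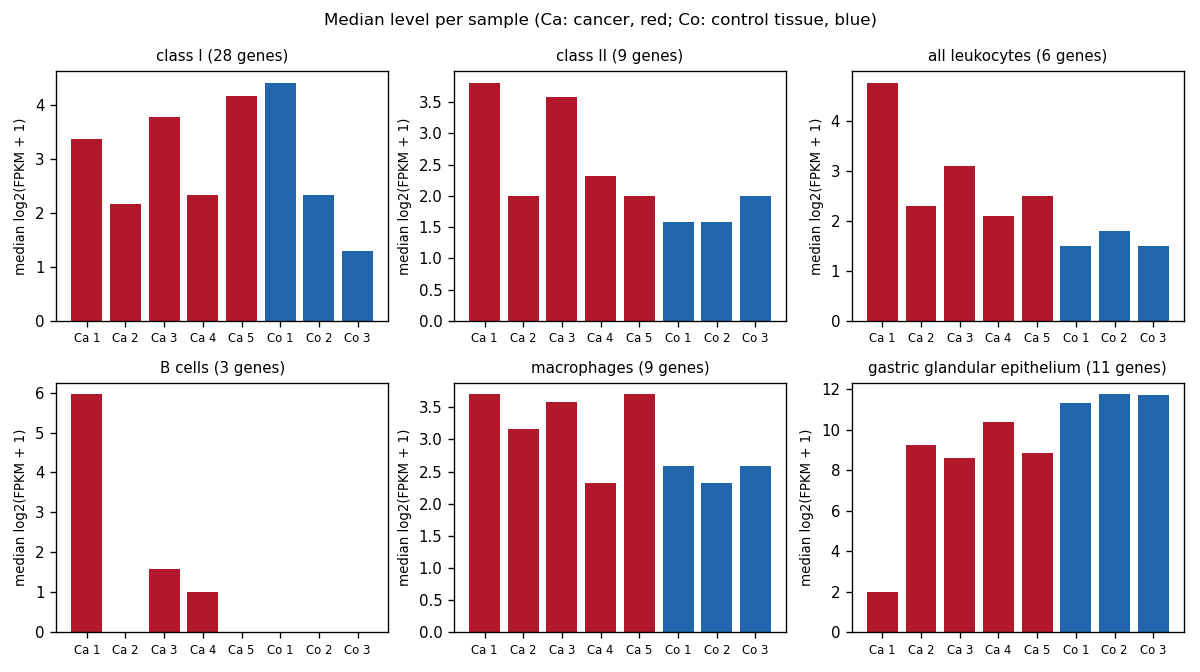
Median log2(FPKM + 1) per sample (bars from 0; Ca: cancer, red; Co: control tissue, blue) over the tested genes of 6 lists. Class I is highest in control 1 and cancer 5, class II in cancers 1 and 3, and B cell genes in cancer 1.

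Of 9 macrophage genes 4 were higher and 0 lower in the cancers, with a median log2 fold change of 1.21, and after rescaling all 9 were called higher. C1qa and C1qb, complement chains made by tissue macrophages, rose to 47 to 117 FPKM from 10 to 15 FPKM and to 33 to 87 FPKM from 8 to 12 FPKM (2.24 ± 0.30 and 2.12 ± 0.31 SE, limma adjusted p = 0.00267 and 0.00316). Csf1r, the receptor of macrophage colony-stimulating factor, measured 12, 5, 10, 4 and 5 FPKM against 2, 3 and 2 FPKM (1.21 ± 0.35 SE, limma adjusted p = 0.0322), and Fcgr1 was 1 to 3 FPKM in the cancers and listed at 0 in the controls (adjusted p = 0.012). Adgre1 and Cd68 had log2 fold changes of 0.61 and 0.84 without a call (limma adjusted p = 0.108 and 0.0914), and both were called after rescaling (adjusted p = 0.0204 and 0.0121). Summed over the 9, macrophage genes were 143 to 393 FPKM in the cancers and 44 to 75 FPKM in the controls, with every cancer above every control. The sum was 220 FPKM in cancer 5, whose I-A genes were the lowest, and 226 FPKM in cancer 2. A few high genes weigh most in such sums: Lyz2 was 252 FPKM in cancer 1, 89 FPKM in cancer 2 and 63 FPKM in cancer 5. The part of leukocyte content in the class II values was not tested.

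Of 7 dendritic cell genes 2 had enough values for a test. Itgax (CD11c) measured 3, 2, 6, 2 and 2 FPKM in the cancers and 1, 1 and 0 FPKM in the controls and rose (1.25 ± 0.37 SE, limma adjusted p = 0.035). Flt3, Xcr1 and Zbtb46 were at most 1 FPKM, Clec9a was listed at 0 in all samples, and Ccr7 was 8 FPKM in cancer 1 and 0 elsewhere. Cd40, a co-stimulatory receptor of antigen-presenting cells, was 5, 1, 3, 2 and 4 FPKM in the cancers and listed at 0 in the controls (limma adjusted p = 0.00667), as 1 of 5 tested co-stimulation genes that rose, with 0 that fell. After rescaling 2 of the 5 were called higher.

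Enzymes that process class II cargo and regulators of class II genes made up a list of 15. Of these 4 rose and 3 fell (34.5% of all tested genes were called), with a median log2 fold change of 0.26, and after rescaling 9 were called higher and 0 lower. Ctsl, a lysosomal protease that cleaves the invariant chain in epithelial cells of the thymus, measured 545, 204, 620, 345 and 1295 FPKM against 49, 72 and 44 FPKM (3.19 ± 0.55 SE, limma adjusted p = 0.00562), and was highest in cancer 5. Ctss, the corresponding protease of professional antigen-presenting cells, measured 85, 41, 155, 52 and 49 FPKM against 35, 15 and 7 FPKM (2.04 ± 0.58 SE, limma adjusted p = 0.0304). The lowest cancer exceeded the highest control for each protease.

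Lgmn, an asparagine endopeptidase of the lysosome, rose from 20 to 29 FPKM to 65 to 101 FPKM (1.75 ± 0.19 SE, limma adjusted p = 0.00123). Ifi30, the thiol reductase that opens disulfide bonds of antigens, fell from 255 to 395 FPKM to 103 to 205 FPKM (-1.18 ± 0.28 SE, limma adjusted p = 0.0165). The other 3 called genes of the list, named after their values were seen, were Rfx5 (log2 fold change 1.03), Rfxank (-1.01) and Ctsd (-1.0), of which Rfx5 and Rfxank are subunits of the complex that binds the X box (limma adjusted p = 0.0126 and 0.0072). After rescaling, where 50.0% of all tested genes were called higher and 3.68% lower, the 4 rises were called again and the 3 falls were not.

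Epithelial markers also differed among the cancers. Of 11 gastric gland genes 1 rose (Epcam) and 2 fell (Gkn1 and Cdh1), and 8 were below the controls in every cancer, with summed levels of 1060, 79156, 6473, 56026 and 17349 FPKM in cancers 1 to 5 and 158975 to 241305 FPKM in the controls. Epcam, an adhesion molecule of epithelia, was 314 to 592 FPKM in the cancers and 159 to 183 FPKM in the controls, whereas Cdh1 (E-cadherin) was 52 to 173 FPKM against 304 to 390 FPKM. Of 5 squamous genes 0 rose and 1 fell, Krt4, at 0 to 96 FPKM against 337 to 725 FPKM, whose log2 fold change was -4.99 and, after rescaling, -4.33 (limma adjusted p = 0.0438 and 0.0556). Cancers 2 and 4, which held the highest gland sums, held the lowest class I medians among the cancers (2.16 and 2.32 on the log2 scale, against 3.38 to 4.16 in cancers 1, 3 and 5). In class I members cancer 2 was the lowest cancer in 12 and cancer 4 in 7 of 28, and cancers 5 and 3 the highest in 12 and 9. The part of admixed normal mucosa in these values was not tested. Pgc, listed at 0 in controls 2 and 3 and at 28832 FPKM in control 1, is a chief cell gene of the normal gland, so a 0 in this table may not mean absence.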

How the data were processed

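RNA sequencing of 5 cancers and 3 control tissues was analysed. According to the study's methods and processing notes, the authors trimmed reads with cutadapt 1.8, aligned them with TopHat2 2.0.13 to mm10, and made FPKM with Cuffnorm 2.2.1. The FPKM as deposited had been rounded (100% of values were whole), so they were handled as a score and not as counts. Library depth is unknown, counting intervals are left out, and the wording for a value of 0 is that the gene is listed at 0. The labels and the methods name different library kits. The controls were 3 stomachs; whether the 5 cancers came from separate mice is not stated in the sources used here, and p-values measure the spread between these samples.

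The members and the gene lists were chosen with earlier results of these data known. A minimum FPKM of 1 in 3 or more samples was set, and the genes left were tested with limma 3.58.1 (R 4.3.3) on log2(FPKM + 1), with a trended prior, two-sided, with Benjamini-Hochberg adjustment over 14357 genes and a threshold of 0.05; the script was tested on simulated data. Fold changes on this scale understate changes of low genes. Single values and ratios were tested by exact permutation over 56 splits. Each tested member is named, others by their highest value; of each further list, up to 4 called genes with the largest change are named, besides fixed markers and ratio genes; some of these markers are not reported here. Promoters are from RefSeq (GRCm38.p6), the first entry of each gene. Alternatives were another pseudocount, other filters, rescaling to one sum, quantile normalization, an untrended prior, array weights, a replicate block and leaving out each sample. Figures were drawn with matplotlib 3.10.9.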

Additional observations from a re-analysis of the deposited data

Results flagged for a closer look

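Among 37 tested members and 6 ratios, 1 result had a single cancer far from the other 4. H2-Oa measured 12 FPKM in cancer 1 and 0, 1, 0 and 0 FPKM in cancers 2 to 5, and on the log2 scale the gap of cancer 1 to its nearest neighbour was 0.73 of the whole range of the 5. Chance alone gives such a gap in about 1 of 20 groups, or 2.15 of the 43 screened. The groups of 3 controls were too small to be screened in this way.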

How the results depend on the processing

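Rescaling to one sum raised the called members from 3 to 5 in class I and from 0 to 4 in class II, and the class II median from 1.06 to 1.90. Array weights gave 5 and 7 called members. Over the 12 further lists, an alternative read out after the data were seen, 24 genes were called, against 44 with rescaling, 50 with array weights and 2 with the replicate block. The share of all tested genes called was 34.5% as reported, 53.7% with rescaling, 56.8% with array weights and 10.7% with the block. Signs turned for genes not called as reported, listed here and below for the members and a fixed set of further genes. Outside that set rescaling turned other list genes as well, such as Canx (0.955) and Psme2 (0.922), both then called (limma adjusted p = 0.029 and 0.0443). Of the members, rescaling turned the signs of H2-Bl (0.36), H2-K2 (0.50), H2-L (0.78), H2-Q7 (0.86), H2-Q9 (0.003), H2-T24 (0.43), H2-T9 (0.31) and Psmb9 (0.46). Of the further genes in the set, it turned those of Cd3e (0.49), Psmb5 (0.41), Psmb6 (0.78) and Psmb7 (0.50), the last pair being then called. Array weights did so for H2-Bl (0.43), H2-K2 (0.25), H2-L (0.33), H2-Q7 (0.31), H2-T24 (0.19) and Cd3e (0.072), a pseudocount of 0.1 for H2-Bl (0.42) and H2-Q7 (0.10), and quantile normalization for H2-Q7 (0.07) and Psmb6 (0.29).

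Between cancers and controls with equal replicate numbers, the deviations of genes from their group means correlated at -0.021, -0.194 and -0.104. Differently numbered samples were not compared, so whether the numbers pair the samples was not tested. With a replicate block 2 class I members (H2-Q1 and H2-Q2) and 0 class II members were called, the medians were 0.22 and 1.58, H2-Q10 and H2-Q4 turned to -0.33 and -0.06, and H2-T24 and Cd3e to 0.64 and 0.41.

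Leaving out each sample in turn gave 3 to 4 called class I members, 0 to 2 called class II members (2 without cancer 5), with 17.7% to 36.4% of all tested genes called, and medians of -0.12 (without control 3) to 0.72 (without control 1) in class I and 0.75 to 1.33 in class II. The list total ran from 11 (without control 1) to 31, with 15 without control 2 or control 3. Called genes ran from 0 to 4 in the interferon gamma list, 3 to 7 in the macrophage list and 1 to 6 in the gastric gland list. The log2 fold change ran from 0.689 to 1.554 for Ptprc and from 0.312 to 1.105 for Irf1. Among members whose sign turned, the ranges were -0.20 to 1.07 for B2m, -0.40 to 0.60 for H2-Bl, -0.81 to 0.54 for H2-K2, -0.47 to 0.37 for H2-L, -0.083 to 0.94 for H2-Oa, -0.083 to 0.72 for H2-Q10, -0.58 to 0.81 for H2-Q4, -2.38 to 0.20 for H2-Q6, -1.27 to 1.18 for H2-Q7, -1.92 to 0.66 for H2-Q9, -0.38 to 0.73 for H2-T10, -0.16 to 1.0 for H2-T22, -0.041 to 0.69 for H2-T23, -0.35 to 0.23 for H2-T24, -1.15 to 0.25 for H2-T9, -0.24 to 0.47 for Psmb10, -1.03 to 0.27 for Psmb9, -0.041 to 0.97 for Tap2 and, outside the members, -0.45 to 0.26 for Cd3e. The Psmb9 to Psmb6 ratio ran from -0.80 to 0.36 and the H2-Ab1 to Ptprc ratio from -0.41 to 0.21. H2-M3 and H2-Q2 were called in every fit but the block for H2-M3, and H2-Q1 in every fit but the one with a mean FPKM of at least 5, which left it out. The causes of these changes were not tested. Depth is unknown, 3 controls limit every test, and rounding limits values of a few FPKM.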
